A study of Ovis aries with 6 samples.

Results

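Spinous keratinocytes marked by desmocollin 1 (DSC1) and desmoglein 1 (DSG1) were examined in the rumen epithelium of sheep. Nuclei were chosen by the transcripts measured in them, a transcript molecule being counted once by its unique molecular identifier (UMI). A spinous nucleus held at least 1 UMI of at least 4 of the 6 genes DSC1, DSG1, SERPINB13, B4GALNT3, CARD14 and DSG4. It held at most 2 of TPRG1, TMPRSS11D, SLC26A3, NOS2 and A2ML1 (the upper genes), at most 3 of SAMD8, FBXO32, CRISP3, DUSP14, SOBP, MYZAP and SPOCK1 (the outermost genes), and 0 UMIs of the leukocyte gene PTPRC. Of the 67553 barcodes, 40419 had 500 genes or more and no more than 10% of UMIs from mitochondrial genes, and 848 of these met the rule. The levels of the 19 rule genes describe that choice: those that passed the filter on low counts stayed in the fits over all genes, but no p is given for them.

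Nuclei came from the ventral sac of the rumen of 6 male lambs (Ovis aries), with 1 droplet library (10x Genomics) per animal. The treatment label was MGNS for 3 animals and MGHS for 3, in a series on grazing sheep and supplementary feeding. Neither code is spelled out in the labels, which give no breed, age or diet of the groups. The animals were picked at random within each group, so the animal was the replicate, and values are listed in the order of animals 1, 2 and 3 of a group.

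The rumen is lined by a stratified squamous epithelium that absorbs the short-chain fatty acids made by fermentation and keeps microbes out. Its keratinocytes divide in the basal layer and move outwards. In the spinous layer they leave the cell cycle and build many desmosomes, the junctions that tie the keratin filaments of neighbouring cells together. Desmosomal cadherins (desmocollins and desmogleins) bind those of the next cell, their tails bind plakoglobin (JUP) and plakophilins, and desmoplakin (DSP) links these to keratin. CARD14 is an adaptor that activates NF-kB in keratinocytes, SERPINB13 an intracellular protease inhibitor of squamous epithelia, and B4GALNT3 an enzyme that adds N-acetylgalactosamine to glycans.

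The MGNS animals gave 132, 220 and 178 spinous nuclei and the MGHS animals 70, 84 and 164, with 629005 to 2943257 UMIs in sum per animal. The median spinous nucleus held 11466 ± 1850 UMIs over the MGNS animals and 8643 ± 113 over the MGHS animals (mean ± SD, n = 3 each), without overlap (exact permutation p = 0.1, two-sided, the smallest that 3 against 3 animals allow). Doublet calls fell on 51 spinous nuclei (6.01%, between 0% and 11.8% per animal) and on 9.31% of all filtered nuclei, and were kept. Pairs of libraries shared 6 to 20 barcodes among filtered nuclei.

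The other keratinocyte gates, 3 in all, were built in the same way and served for comparison. The basal gate (4514 nuclei) asked for at least 3 of TP63, SOX6, KRT15, KRT5, COL17A1 and ITGB4 and at most 1 of the 6 spinous genes. The upper gate (2202 nuclei) asked for at least 3 of the 5 upper genes, and the outermost gate (4607 nuclei) for at least 4 of the 7 outermost genes. A further 15340 nuclei with at least 2 UMIs of PTPRC showed how often a transcript was found in cells of another type. Levels are in CPM, the UMIs of a gene scaled to the total over an animal's nuclei of that gate. Because every gate was made from measured transcripts, differences between gates are given as a description without a test.

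The label was checked against keratinocyte and leukocyte genes. Keratinocyte genes outside the rule were common in spinous nuclei. With every nucleus thinned to 2000 UMIs, the stress keratin KRT6A was found in 99.2%, DSP in 88.2% and the desmosomal protein PERP in 84.4%, against 35.4%, 20.3% and 18.9% of PTPRC nuclei. The lymphocyte genes SKAP1, IKZF1 and CD3E were found in 2.76%, 1.44% and 0.600% of spinous nuclei and in 72.3%, 63.6% and 37.5% of PTPRC nuclei. BCL11B, from the same list of T and NK cell genes, was less distinct. It was found in 21.7% of spinous, 30.2% of basal and 48.6% of PTPRC nuclei. The proliferation genes MKI67 and TOP2A were found in 0.960% and 1.56% of spinous nuclei and in 7.67% and 15.5% of basal nuclei. Of the genes known from the layers above the basal one in skin, some were abundant in spinous nuclei and others were at or near 0. KRTDAP averaged 1356 ± 912 CPM (SD, n = 6), the protease inhibitor SPINK5 1613 ± 606, the transglutaminase TGM1 239 ± 69.7 and involucrin (IVL) 81.5 ± 42.4 CPM. KRT1 averaged 0.103 ± 0.251 CPM and loricrin (LORICRIN) 0.206 ± 0.504 CPM, and filaggrin (FLG) and corneodesmosin (CDSN) had 0 UMIs. KRT10 was not matched by symbol and was not analysed here.

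Detection of the 6 spinous genes was uneven in the chosen nuclei. Without thinning, DSC1 was found in 99.6% of them, B4GALNT3 in 93.2%, SERPINB13 in 89.98% and CARD14 in 88.8%. The desmogleins were rarer, with DSG1 in 68.4% and DSG4 in 45.9%. In PTPRC nuclei the shares were 19.02% for DSC1, 9.80% for B4GALNT3, 8.20% for SERPINB13, 7.80% for CARD14, 5.14% for DSG1 and 3.21% for DSG4, at a median of 3687 UMIs against 10498 in spinous nuclei. After thinning, DSC1 was found in 83.3% of spinous, 63.9% of upper and 12.3% of PTPRC nuclei. In the same order B4GALNT3 was found in 53.8%, 39.7% and 4.92%, CARD14 in 42.1%, 28.4% and 3.76%, and SERPINB13 in 41.9%, 32.98% and 3.83%. The desmogleins were then about as common in upper as in spinous nuclei. DSG1 was found in 27.9%, 26.8% and 2.50%, and DSG4 in 16.3%, 16.8% and 0.914%. All 6 genes were found in 232 spinous nuclei (27.4%), 5 in 264 and 4 in 352. The commonest pattern after the full set was DSC1, SERPINB13, B4GALNT3 and CARD14 without a desmoglein of the rule (199 nuclei, 23.5%), followed by the same 4 genes with DSG1 (151 nuclei, 17.8%). DSG1 was found in 320 of the 389 spinous nuclei with DSG4 (82.3%) and in 260 of the 459 without it (56.6%).

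Many nuclei lay close to the borders of the rule. Just outside it, 554 nuclei met every other condition with 3 of the 6 genes at a median of 8917 UMIs, and the 352 just inside with 4 genes had a median of 10210 UMIs. On the upper side, 503 spinous nuclei held 2 of the 5 upper genes, 325 held 1 and 20 held 0. Another 1100 nuclei had at least 4 spinous genes and were left out for their upper genes alone, 352 for PTPRC alone and 59 for their outermost genes alone. The upper gene in most spinous nuclei was A2ML1, a protease inhibitor of the alpha-2-macroglobulin family, found in 96.2% of them, 98.7% of upper and 47.4% of PTPRC nuclei. The others were found in 24.2% (TMPRSS11D), 20.6% (SLC26A3), 12.6% (TPRG1) and 3.302% (NOS2) of spinous nuclei, against 15.1%, 24.99%, 12.03% and 4.37% of PTPRC nuclei. Of the outermost genes, 4 were found in a smaller share of spinous than of PTPRC nuclei: CRISP3 in 15.7% and 17.7%, FBXO32 in 9.79% and 14.6%, SOBP in 1.65% and 7.47%, and SPOCK1 in 2.005% and 4.04%. Without thinning, the shares were larger in spinous nuclei for SAMD8 (40.7% and 37.2%), DUSP14 (24.6% and 18.9%) and MYZAP. MYZAP, which codes for a protein of cell junctions, was found in 57.9% of spinous, 23.7% of basal and 23.6% of PTPRC nuclei. After thinning its shares were 20.8%, 9.47% and 14.4%, and 84.7% of outermost nuclei. Thinning reversed the order for SAMD8 (11.3% of spinous and 21.9% of PTPRC nuclei) and DUSP14 (7.08% and 11.9%). It also did so for the upper genes TMPRSS11D (7.44% and 9.43%) and TPRG1 (5.28% and 8.19%). A2ML1 stayed commoner in spinous nuclei (81.03% and 32.0%).

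Desmosomal cadherins were described first across the layers. DSC1 gave 1679, 1379 and 2491 CPM in the MGNS animals and 2582, 2032 and 1564 in the MGHS animals, against 40.5 to 69.7 CPM in basal nuclei. DSG1 gave 151, 107 and 262 CPM in the MGNS animals and 200.3, 199 and 216 in the MGHS animals, against 0.201 to 1.85 CPM in basal nuclei. DSG4 gave 72.1, 41.8 and 108 CPM in the MGNS animals and 107, 141 and 121 in the MGHS animals, against 0 to 0.426 CPM in basal nuclei. For these 3 rule genes every spinous value lay above every basal value. The spinous gate asked for the spinous genes and the basal gate limited them. The choice of nuclei thus favoured this order, which is not a separate finding about the layers. The means in upper nuclei were 2642 ± 1091, 252 ± 119 and 125 ± 50.3 CPM in the same order of genes. In the gene table the span of DSC1 overlaps those of DSG1, DSG3 and DSG4. Whether the counting used strand was not stated, so part of a count could belong to an overlapping neighbour.

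Desmosomal genes outside the rule also differed in level between the layers. DSC2 averaged 1890.3 ± 358 CPM in spinous and 172 ± 34.6 in basal nuclei (SD, n = 6), and DSG3 2154 ± 179.9 and 440.2 ± 146. In upper nuclei DSC2 gave 1102 to 2648 CPM and DSG3 1263 to 2709, both overlapping the spinous values. DSC3 was the cadherin with the opposite order between spinous and basal nuclei. It gave 69.8, 126 and 76.8 CPM in the MGNS animals and 44.5, 54.3 and 99.1 in the MGHS animals in spinous nuclei, against 148 to 202 CPM in basal nuclei, so every spinous value lay below every basal value. Of the plaque proteins, PKP1 averaged 472 ± 38.7 CPM in spinous, 113 ± 14.3 in basal and 325 ± 84.9 in upper nuclei, and was highest in spinous nuclei in 5 of 6 animals. JUP (445 ± 65.1, 150.3 ± 14.9 and 379.8 ± 126 CPM in the same order), PERP (1235 ± 229.8, 408 ± 92.9 and 1029 ± 166 CPM) and envoplakin (EVPL; 185 ± 40.9, 60.5 ± 9.45 and 155 ± 32.9 CPM) were also highest in spinous nuclei in 5 of 6. PKP2, at 63.3 ± 24.3, 25.1 ± 7.40 and 35.9 ± 20.5 CPM, was highest there in 6 of 6. DSP averaged 1366 ± 175 CPM in spinous, 448 ± 56.7 in basal and 1398 ± 300.3 in upper nuclei. It was highest in spinous nuclei in 3 of 6, the MGHS animals, and higher in upper nuclei in the MGNS animals.

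**Figure D1:**
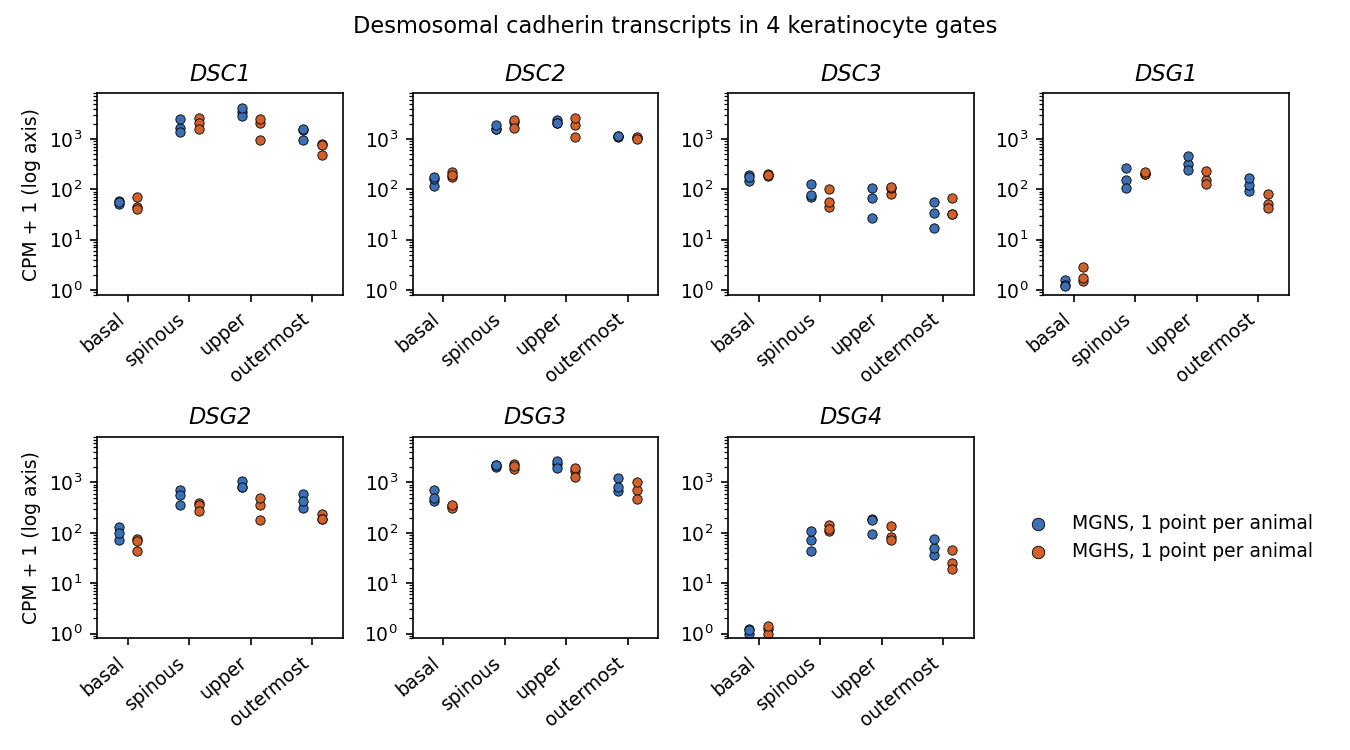
CPM + 1 (log axis) of the 7 desmosomal cadherins in the basal, spinous, upper and outermost gates, with 1 point per animal (blue MGNS, orange MGHS). DSG1 and DSG4 lie at the bottom of the axis in basal nuclei and high in the 3 other gates. DSC3 is highest in basal nuclei. DSC1, DSG1 and DSG4 helped to choose the spinous nuclei and were limited in the basal gate, so the gates favoured their contrast.

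Several keratins and regulators outside the rule peaked in the spinous layer. KRT6A averaged 6112 ± 2058 CPM in spinous, 1039 ± 479 in basal and 4581 ± 969.6 in upper nuclei, and KRT17 3935 ± 999, 1716 ± 302 and 3204 ± 497 CPM. Both were highest in spinous nuclei in 6 of 6 animals. So were ZNF750, a repressor of basal genes that acts in differentiation (178 ± 35.9 CPM, against 26.9 ± 8.39 in basal and 134 ± 50.6 in upper nuclei), and the Notch target HES1 (82.8 ± 15.6, 50.02 ± 6.93 and 42.1 ± 4.35 CPM). The receptor NOTCH3 averaged 46.1 ± 9.57 CPM against 28.5 ± 9.91 in upper nuclei, and the ligand JAG1 122 ± 25.9 against 109 ± 19.5 in basal nuclei, each highest in spinous nuclei in 6 of 6. TP63, the master regulator of the basal state, averaged 1005 ± 269 CPM in spinous and 2177 ± 405 in basal nuclei and was still found in 67.5% of thinned spinous nuclei. The basal keratins KRT15 and KRT5 were found in 15.97% and 21.97% of thinned spinous nuclei and in 83.8% and 75.5% of basal nuclei. TP63, KRT15 and KRT5 are among the genes that chose the basal nuclei, so that choice favoured their high values there.

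Spinous nuclei with more of the 6 genes had less of the basal transcripts and more of the late ones. Between nuclei with 4 and with 6 of the genes, TP63 went from 1147 ± 298 to 842 ± 272 CPM, KRT15 from 309 ± 201 to 92.8 ± 59.98 and KRT5 from 326 ± 173 to 81.6 ± 78.5 (SD, n = 6), each lower with 6 genes in 6 of 6 animals. DSC3 went from 101 ± 34.98 to 48.6 ± 16.3 CPM and GJA1, the gap junction protein connexin 43, from 1233 ± 365 to 971 ± 262, likewise lower in 6 of 6. Transcripts of later stages were higher with 6 genes in 6 of 6 animals. DSC2 went from 1386 ± 205 to 2500.3 ± 480.2 CPM, DSG3 from 1754 ± 217 to 2582 ± 206, the envelope cross-linkers TGM1 and TGM3 from 164 ± 65.6 to 329 ± 98.6 and from 538 ± 243 to 1314 ± 670.1, and the differentiation factor GRHL3 from 95.1 ± 26.9 to 225 ± 79.1. A2ML1, an upper gene of the rule, went from 1664 ± 729 to 5054 ± 1443 CPM. KRT17 and PKP2 were higher with 6 genes in 1 and 2 of 6 animals. These nuclei were split by genes of the rule, and the median with 6 genes was 10759 UMIs against 10210 with 4, so the values are given as a description.

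Over 8765 to 9317 genes per animal, summed spinous nuclei were most like upper nuclei. Across genes that averaged at least 10 CPM over the 4 gates, the correlation of log2(CPM + 1) was 0.85 to 0.92 with the upper gate, 0.75 to 0.83 with the basal gate and 0.58 to 0.80 with the outermost gate, in that order in 6 of 6 animals. The basal gate limited the spinous genes and the upper gate did not, and rule genes were not left out of the correlation. Of upper nuclei, 30.04% to 82.1% per animal also held 4 or more spinous genes. The gates thus favoured likeness to upper over basal nuclei, which is not a separate finding about the layers. Genes are not independent replicates, and the gates compared come from the same library, so no p is given.

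The 20 genes highest in spinous nuclei relative to the next gate exceeded it by 0.83 to 1.42 on the log2 scale, 3 of them by over 1. In 18 of the 20 the spinous level was the highest of the 4 gates in 6 of 6 animals. GJA1 averaged 1119 ± 301 CPM in spinous and 615 ± 183 in upper nuclei, and the lncRNA LOC105612144, next to GJA1 in the gene table, 122 ± 203 and 39.2 ± 46.1. PLPPR1, a lipid phosphatase-related membrane protein, averaged 163 ± 60.8 CPM against 69.7 ± 31.7 in upper nuclei, and RASSF9 119.7 ± 14.6 against 55.1 ± 7.44. EPHA1, a receptor tyrosine kinase for ephrins, averaged 226 ± 41.1 CPM against 114 ± 23.2, and the transcription factor KLF12 254 ± 103 against 128 ± 37.2. SLC35A3, which carries UDP-N-acetylglucosamine into the Golgi, averaged 272 ± 82.6 CPM against 138 ± 29.6, and GMDS, which starts the synthesis of GDP-fucose, 532 ± 169.6 against 279 ± 98.7. HMGCS1, an enzyme of cholesterol synthesis, averaged 109 ± 27.02 CPM against 54.2 ± 8.63 in basal nuclei. The other 11 were RASEF, LOC132657342, WDPCP, ERC2, CWH43, ADGRG7, ERMP1, LOC132657302, CPNE8, LOC114117773 and LOC101106941. ERC2 and LOC105612144 were highest in spinous nuclei in 5 of 6 animals, and 3 of the 20 are lncRNAs.

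The first comparison between the groups was of the share of spinous nuclei. With all nuclei thinned to 2000 UMIs, which left out 10.7% to 19.4% of an animal's nuclei as too shallow, the rule was met by 1.54, 1.81 and 2.68% of filtered nuclei of the MGNS animals and by 1.23, 0.823 and 1.76% of those of the MGHS animals. These overlapped, and the means were 2.01 ± 0.597% in MGNS and 1.27 ± 0.470% in MGHS (SD, n = 3 each), with a two-sided exact permutation p of 0.2. Without thinning they were 2.70 ± 0.180% in MGNS and 1.48 ± 0.357% in MGHS and did not overlap (exact permutation p = 0.1). Among nuclei of the 4 keratinocyte gates, thinned, the share was 7.03, 7.95 and 8.15% for the MGNS animals and 3.04, 1.90 and 4.11% for the MGHS animals. Every MGHS animal lay below every MGNS animal, at 7.71 ± 0.602% in MGNS and 3.02 ± 1.11% in MGHS and with a two-sided exact permutation p of 0.1, the smallest possible. Without thinning the means were 13.4 ± 3.05% in MGNS and 3.83 ± 0.755% in MGHS. A share depends on the other gates in its denominator and, through the rule, on the level of the 19 rule genes, so a change in one of these and a change in cell number cannot be told apart.

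**Figure D2:**
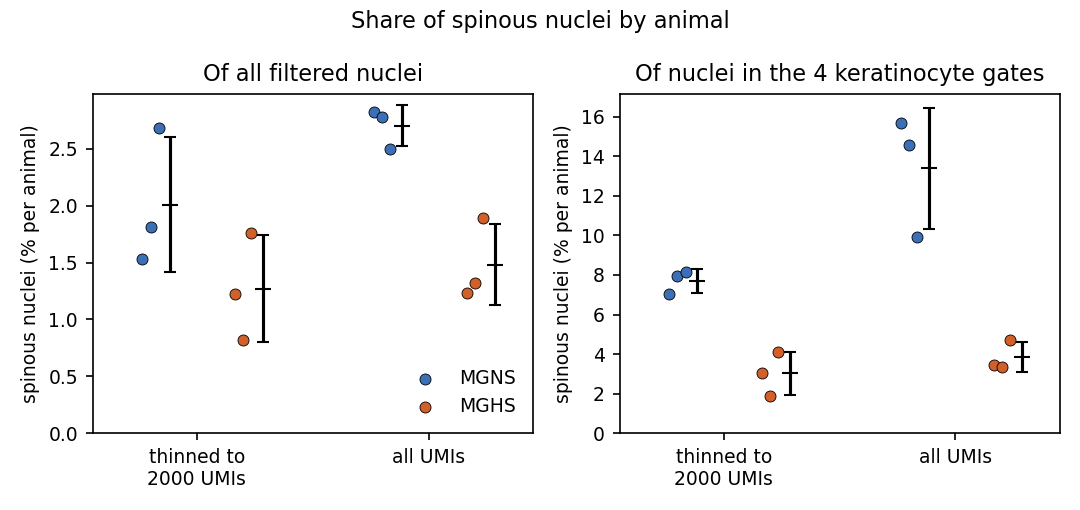
Spinous nuclei as a percentage of all filtered nuclei (left) and of nuclei in the 4 keratinocyte gates (right), with nuclei thinned to 2000 UMIs or with all UMIs. Points are animals and bars show mean ± SD of 3 animals; the MGHS animals lie below the MGNS animals without overlap except in the thinned share of all nuclei.

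The second comparison asked which transcripts differed between MGHS and MGNS within spinous nuclei. UMIs were summed per animal, so fewer transcribing nuclei and less RNA per nucleus cannot be told apart. Normalised CPM are CPM scaled by TMM factors, which align the bulk of genes between animals. Of 10512 genes tested, 5 passed in edgeR (0.0476%), 3 higher in MGHS (0.0285%) and 2 lower (0.019%), while 1114 (10.6%) had an unadjusted p under 0.05, 616 higher (5.86%) and 498 lower (4.74%). DESeq2 called 123 genes (1.17%) and limma-voom 11 (0.105%), the 5 among them in both.

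GPX1 and SLC28A3 had the largest differences of the 5. GPX1, a selenium-containing glutathione peroxidase that reduces hydrogen peroxide, measured 30.7, 17.8 and 26.4 normalised CPM in the MGNS animals and 126, 131 and 231 in the MGHS animals. The lowest MGHS value exceeded the highest MGNS value, and the groups differed by 2.73 ± 0.32 on the log2 scale (SE; edgeR adjusted p = 0.0384). In PTPRC nuclei GPX1 averaged 93.5 CPM in MGNS and 245 in MGHS, above its level in spinous nuclei, and the part of free RNA in its rise was not tested. SLC28A3, a sodium-coupled nucleoside transporter, measured 148, 193 and 254 normalised CPM in the MGNS animals and 50.1, 44.1 and 34.6 in the MGHS animals. All MGHS values lay below all MGNS values, a log2 difference of -2.23 ± 0.27 (edgeR adjusted p = 0.0384). In PTPRC nuclei it averaged 52.96 CPM in MGNS and 12.5 in MGHS.

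The G protein subunit GNA14 also fell, and C5H5orf46 and the lncRNA LOC121816532 rose. GNA14 measured 273, 198 and 207 normalised CPM in the MGNS animals and 48.4, 56.1 and 77.3 in the MGHS animals, a log2 difference of -1.87 ± 0.25 (edgeR adjusted p = 0.0484). C5H5orf46, in the gene table between SCGB3A2 and the protease inhibitor gene SPINK5, measured 23.4, 15.004 and 15.1 normalised CPM in the MGNS animals and 74.3, 89.5 and 64.4 in the MGHS animals, a log2 difference of 2.09 ± 0.28 (edgeR adjusted p = 0.0484). LOC121816532, which overlaps PPP1R37 in the gene table, measured 15.1, 14.7 and 16.7 normalised CPM in the MGNS animals and 82.4, 61.4 and 63.03 in the MGHS animals, a log2 difference of 2.14 ± 0.25 (edgeR adjusted p = 0.0384). The groups did not overlap for any of the 3. In PTPRC nuclei GNA14 averaged 50.1 CPM in MGNS and 16.1 in MGHS, C5H5orf46 7.17 CPM in MGNS and 10.6 in MGHS and LOC121816532 8.49 CPM in MGNS and 17.1 in MGHS, all below the spinous levels. In the gene table GNA14 overlaps LOC121818631 and C5H5orf46 overlaps LOC121819653.

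The 5 calls depended on the animals included and on the gate. Each passed in 9 of 16 alternatives and kept its sign in all 16. Without MGNS 1, 3 genes passed, of which SLC28A3 was 1 of the 5, and without MGHS 3, 15 passed, with 4 of the 5 among them and SLC28A3 at an edgeR adjusted p of 0.054. Without MGNS 2, MGNS 3, MGHS 1 or MGHS 2, edgeR called 0 genes, with 804, 1028, 1242 and 928 at an unadjusted p under 0.05. None of the 5 passed with at least 5 of 6 spinous genes required, or with the rule read on nuclei thinned to 2000 UMIs, an alternative chosen after seeing the data, where edgeR called 0 genes each (836 and 1017 at an unadjusted p under 0.05). In the thinned reading the log2 difference was 1.20 for C5H5orf46, -1.14 for GNA14, 2.70 for GPX1, -2.01 for SLC28A3 and 1.91 for LOC121816532. With the replicate number as a block 27 genes passed (0.257%), the 5 among them.

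**Figure D3:**
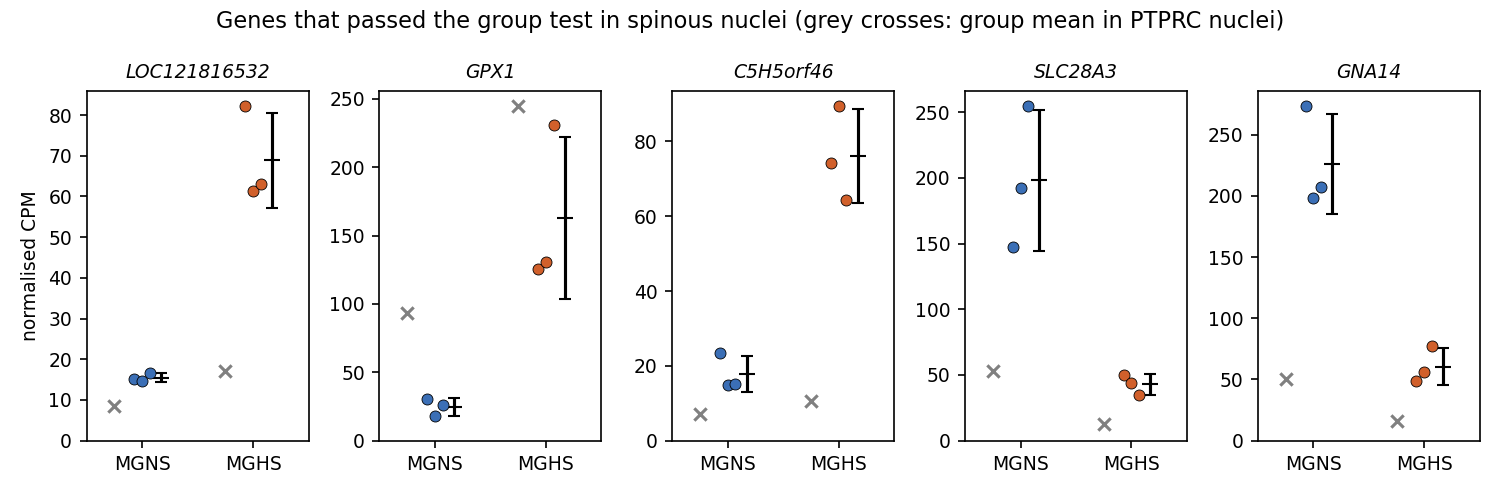
Normalised CPM per animal of the 5 genes that passed in spinous nuclei, with mean ± SD of 3 animals (bars). Grey crosses give the group mean in PTPRC nuclei, in CPM without TMM factors. LOC121816532, GPX1 and C5H5orf46 are higher in every MGHS animal and SLC28A3 and GNA14 lower, and only for GPX1 do the crosses lie above the spinous means.

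Other genes stood apart between the groups without passing the adjusted test. SERPINB12, an intracellular protease inhibitor whose gene lies beside SERPINB13, measured 22.3, 24.1 and 40.9 normalised CPM in the MGNS animals and 107, 93.5 and 107 in the MGHS animals (log2 1.82 ± 0.28, edgeR adjusted p = 0.0597). CASP1, the inflammatory caspase, measured 24.5, 34.1 and 40.9 normalised CPM in the MGNS animals and 6.46, 5.34 and 3.39 in the MGHS animals (log2 -2.79 ± 0.40, edgeR adjusted p = 0.054). PDK4, which restrains pyruvate oxidation, measured 112, 73.1 and 71.6 normalised CPM in the MGNS animals and 25.8, 20.03 and 21.01 in the MGHS animals (log2 -1.95 ± 0.28, edgeR adjusted p = 0.054). The groups did not overlap for these 3. The metalloreductase STEAP4 averaged 68.8 ± 17.5 normalised CPM in MGNS and 15.6 ± 2.96 in MGHS (log2 -2.09 ± 0.30, edgeR adjusted p = 0.054). The hexokinase HK2 gave 32.9, 119 and 51.1 against 6.46, 6.68 and 6.10 normalised CPM, MGNS against MGHS, with MGNS 2 far above the rest (edgeR adjusted p = 0.0828). The fibrillar collagens COL3A1 and COL1A2, which fibroblasts make, had higher means in MGHS without passing. COL3A1 averaged 47.4 ± 8.43 normalised CPM in MGNS and 191 ± 78.9 in MGHS (edgeR adjusted p = 0.0597), and in PTPRC nuclei 171 CPM in MGNS and 392 in MGHS. COL1A2 averaged 31.5 ± 11.5 normalised CPM in MGNS and 138 ± 53.8 in MGHS (edgeR adjusted p = 0.0828), and in PTPRC nuclei 115 CPM in MGNS and 256 in MGHS. PADI1, a peptidylarginine deiminase of the epidermis, averaged 2.74 ± 1.60 normalised CPM in MGNS and 21.5 ± 4.78 in MGHS in spinous nuclei (edgeR adjusted p = 0.0828) but 57.8 CPM in MGNS and 211 in MGHS in PTPRC nuclei. The part of free RNA in these values was not tested.

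The background for the gene lists was wide. Over all 10512 genes the groups did not overlap for 839 higher (7.98%) and 869 lower genes (8.27%), 16.2% in all, and the median log2 fold change was 0.03. The split depended on the scaling: of the genes without overlap, 49.1% were higher with TMM factors and 27.4% without them (507 higher and 1342 lower), where the median was -0.11. Counts without TMM factors are therefore given beside each list where they differ.

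The rule genes themselves are given as values. DSC1 measured 1649, 1269 and 2479 normalised CPM in the MGNS animals and 2622, 2198 and 1721 in the MGHS animals, with overlap between the groups. DSG1 measured 148, 98.8 and 261 normalised CPM in the MGNS animals and 203, 215 and 237 in the MGHS animals, also with overlap. DSG4 measured 70.8, 38.4 and 107 normalised CPM in the MGNS animals and 108, 152 and 133 in the MGHS animals, and each MGHS animal lay above each MGNS animal. On CPM without TMM factors DSG4 overlapped, with MGHS 1 at 106.5 and MGNS 3 at 107.6. SERPINB13, B4GALNT3 and CARD14 overlapped, with 240 to 405, 345 to 576.5 and 221 to 425 normalised CPM over the 6 animals. Of the upper and outermost genes, SLC26A3, an exchanger of chloride and bicarbonate, measured 34.6, 1.56 and 21.5 normalised CPM in the MGNS animals and 87.2, 85.5 and 79.3 in the MGHS animals and was without overlap, as were SAMD8 (44.6, 29.4 and 52.7 normalised CPM in the MGNS animals and 136, 64.1 and 82.7 in the MGHS animals) and CRISP3 (7.81, 11.6 and 6.46 normalised CPM in the MGNS animals and 35.5, 12.02 and 43.4 in the MGHS animals). On CPM without TMM factors CRISP3 overlapped, with MGNS 2 at 12.6 and MGHS 2 at 11.1, while SLC26A3 and SAMD8 did not. NOS2, SOBP, SPOCK1 and PTPRC did not pass the filter on low counts.

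Among desmosomal genes outside the rule, 0 of 12 passed, the median log2 fold change was 0.19, and 4 were higher and 1 lower without overlap (2 and 1 without TMM factors). PERP measured 1014, 949.9 and 1039 normalised CPM in the MGNS animals and 1322, 1643 and 1629.8 in the MGHS animals (log2 0.61 ± 0.27, edgeR adjusted p = 0.459). The others higher without overlap were PKP1, DSP and EVPL. PKP2, the lower one, measured 65.8, 96.3 and 70.5 normalised CPM in the MGNS animals and 54.9, 36.1 and 54.9 in the MGHS animals (log2 -0.67 ± 0.26, edgeR adjusted p = 0.406). DSG3 measured 1997, 2052 and 2247 normalised CPM in the MGNS animals and 2411, 2019 and 2383 in the MGHS animals, with overlap and a log2 difference of 0.11 ± 0.29. JUP overlapped as well, at 381, 498 and 468 normalised CPM in the MGNS animals and 496, 430.04 and 421 in the MGHS animals.

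Of the keratins, 0 of 11 passed, the median log2 fold change was 0.93, all 11 were above 0 (10 without TMM factors), and 4 were higher and 0 lower without overlap under both scalings. KRT36, a keratin known from hair and tongue papillae, measured 1789, 778 and 1476 normalised CPM in the MGNS animals and 3833, 4629 and 5839.7 in the MGHS animals (log2 1.82 ± 0.41, edgeR adjusted p = 0.183). KRT6A measured 4591, 3353 and 5085 normalised CPM in the MGNS animals and 7299, 7257 and 10293 in the MGHS animals (log2 0.93 ± 0.39, edgeR adjusted p = 0.44). KRT13, the keratin of internal stratified epithelia, measured 103, 117 and 294 normalised CPM in the MGNS animals and 475, 709 and 1277 in the MGHS animals (log2 2.27 ± 0.49, edgeR adjusted p = 0.183). The values of MGHS 3 were the highest for these 3 keratins. KRT78 was the other without overlap, at 20.6, 26.3 and 47.9 against 108, 52.1 and 165, MGNS against MGHS (edgeR adjusted p = 0.208). The tested keratins summed to 8108 to 12188 CPM in MGNS and 15792 to 23784 CPM in MGHS, and in PTPRC nuclei to 2324 to 3367 and 3435 to 7972 CPM. The part of free RNA in these keratin values was not tested.

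Antioxidant and selenoprotein genes held the one list member that passed, GPX1. Of 26 tested, 1 rose and 0 fell, the median log2 fold change was 0.54, and 9 were higher and 0 lower without overlap (9 and 2 without TMM factors). The quinone reductase NQO1 measured 8.37, 7.19 and 11.8 normalised CPM in the MGNS animals and 32.3, 30.7 and 29.8 in the MGHS animals (log2 1.77 ± 0.32, edgeR adjusted p = 0.11). GCLM, the modifier subunit of the enzyme that starts glutathione synthesis, measured 58.002, 54.4 and 40.4 normalised CPM in the MGNS animals and 82.4, 136 and 127 in the MGHS animals (log2 1.18 ± 0.26, edgeR adjusted p = 0.17). Both were higher in every MGHS animal, as were GPX4, SELENOW, TXN, PRDX6, SOD1 and CAT. The mitochondrial superoxide dismutase SOD2 had the lowest fold change of the list. It measured 510.3, 470.4 and 362 normalised CPM in the MGNS animals and 107, 90.8 and 368 in the MGHS animals (log2 -1.22 ± 0.49, edgeR adjusted p = 0.427), and MGHS 3 lay among the MGNS animals. In PTPRC nuclei, on CPM without TMM factors, 7 of the 26 genes were higher and 0 lower without overlap. Of all 10512 genes, 549 were higher and 1046 lower there.

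Of 21 genes of CARD14 and NF-kB signalling outside the rule, 0 passed, the median log2 fold change was -0.42, and 0 were higher and 7 lower without overlap (0 and 10 without TMM factors). NFKB1, an NF-kB subunit, measured 437, 572 and 648 normalised CPM in the MGNS animals and 218, 271 and 199.9 in the MGHS animals (log2 -1.27 ± 0.25, edgeR adjusted p = 0.133). RELB, a subunit of the alternative pathway, measured 15.1, 13.8 and 20.4 normalised CPM in the MGNS animals and 0, 5.34 and 5.42 in the MGHS animals (edgeR adjusted p = 0.277). TNFAIP3, which shuts NF-kB signalling off, measured 25.7, 18.1 and 32.3 normalised CPM in the MGNS animals and 16.1, 10.7 and 10.2 in the MGHS animals (edgeR adjusted p = 0.338). REL, TRAF2, NFKBIB and CHUK were the others lower without overlap, and MALT1 and BCL10, the partners of CARD14, overlapped. In PTPRC nuclei, on CPM without TMM factors, 8 of the 21 were lower and 0 higher without overlap. Of all 10512 genes, 1046 were lower and 549 higher there. NFKB1 was at 591 CPM in MGNS and 364 in MGHS in PTPRC nuclei, and the part of free RNA was not tested.

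**Figure D4:**
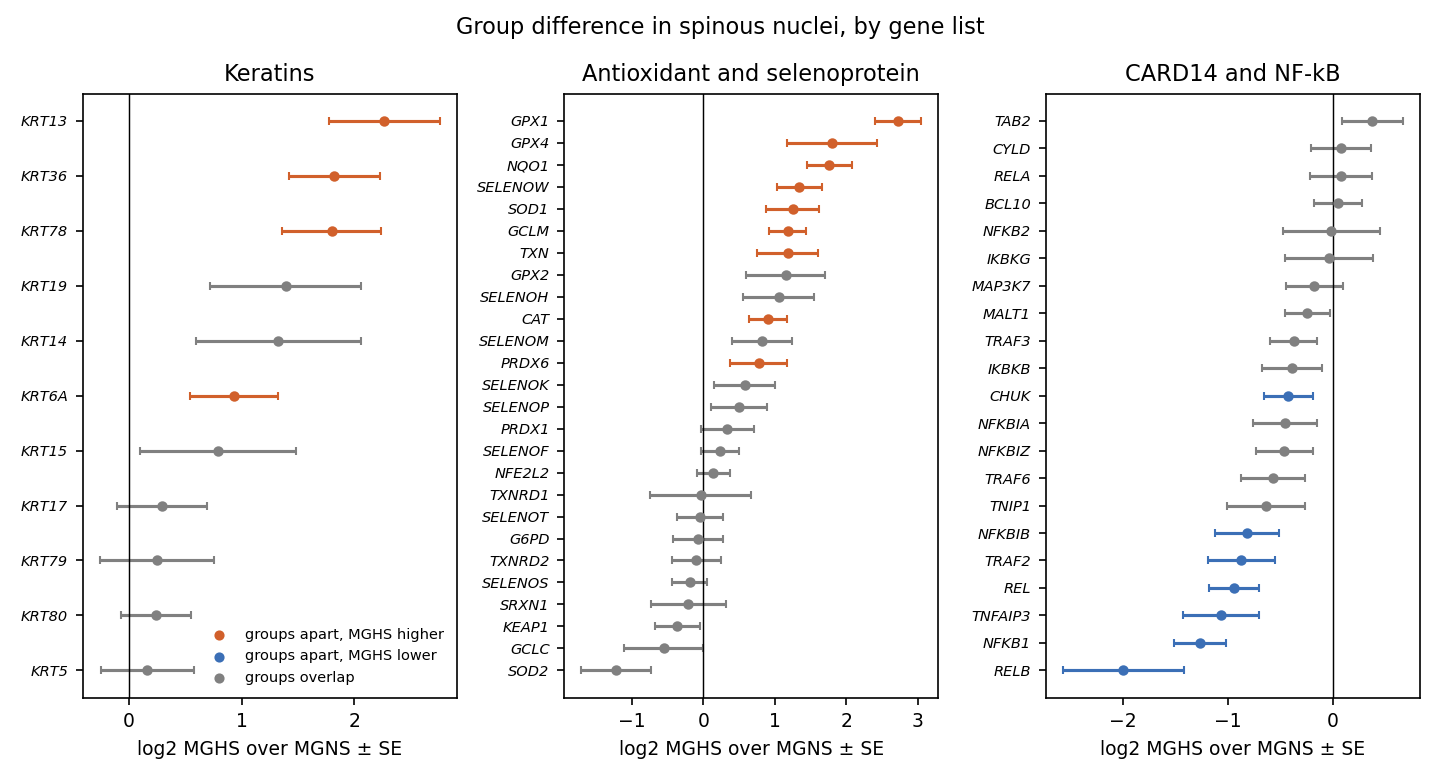
Log2 fold change of MGHS over MGNS ± SE in spinous nuclei for tested keratins, antioxidant and selenoprotein genes, and genes of CARD14 and NF-kB signalling outside the rule. Orange and blue mark genes whose values did not overlap between the groups (higher or lower in MGHS) and grey those that overlapped; GPX1, at the top of the middle panel, is the gene that passed the adjusted test.

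Genes of fuel use and absorption gave 0 passing members. Of 9 ketone body genes, 3 were higher and 0 lower without overlap, and the median was 0.49. Among them was ACAT1, a thiolase of ketone metabolism, at 129 ± 23.9 normalised CPM in MGNS and 217 ± 27.8 in MGHS. Of 20 glycolysis genes, 0 were higher and 5 lower without overlap, with a median of -0.16. These were HK2, PDK4, PFKFB3, PGK1 (90.4 ± 8.72 normalised CPM in MGNS and 55.8 ± 18.03 in MGHS) and the glucose transporter SLC2A1 (39.3 ± 5.19 normalised CPM in MGNS and 22.3 ± 3.19 in MGHS). Of 15 genes for transport of short-chain fatty acids, acid and base outside the rule, 12 were above 0 (10 without TMM factors), with a median of 0.31. Carbonic anhydrase 1 (CA1) was the one without overlap, at 4830.3, 2919 and 1977 normalised CPM in the MGNS animals and 5356, 10536 and 10119 in the MGHS animals (log2 1.42 ± 0.47, edgeR adjusted p = 0.332).

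Immune and growth factor genes varied within the groups, and 0 passed. Of 15 antigen presentation genes 1 was above 0, with a median of -0.91 (-0.81 without TMM factors). The immunoproteasome subunit PSMB9 measured 46.8, 71.3 and 9.68 normalised CPM in the MGNS animals and 6.46, 8.01 and 17.6 in the MGHS animals, with overlap, since MGNS 3 lay among the MGHS animals. PSMB8 was the one lower without overlap, at 29.6, 74.4 and 10.2 normalised CPM in the MGNS animals and 9.69, 8.01 and 7.45 in the MGHS animals. The chemokine CCL20 measured 292, 61.3 and 809 normalised CPM in the MGNS animals and 32.3, 8.01 and 126 in the MGHS animals, with overlap. Of 12 genes of the epidermal growth factor family, 0 were higher and 2 lower without overlap (0 and 3 without TMM factors). The ligand NRG1 measured 864, 523 and 932 normalised CPM in the MGNS animals and 159.9, 119 and 461 in the MGHS animals (edgeR adjusted p = 0.29). The ligand AREG measured 23.98, 15.9 and 19.4 normalised CPM in the MGNS animals and 8.07, 2.67 and 10.8 in the MGHS animals (edgeR adjusted p = 0.327).

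Genes of barrier and differentiation also gave 0 passing members. Of 11 cornified envelope genes, 2 were higher and 0 lower without overlap, with a median of -0.27. KRTDAP, a small secreted protein of differentiating keratinocytes, measured 845, 263 and 969 normalised CPM in the MGNS animals and 1881, 3130.5 and 1400.1 in the MGHS animals (log2 1.63 ± 0.50, edgeR adjusted p = 0.299). LYPD3, the other, averaged 245 ± 26.95 normalised CPM in MGNS and 337 ± 17.7 in MGHS. Of 26 differentiation factors, 2 were higher and 4 lower without overlap, and 0 and 8 without TMM factors. OVOL2 was among the higher ones, and TP63, PRDM1 and RORA were among the lower ones. Of 14 Notch genes, 0 were apart in either direction (0 higher and 1 lower without TMM factors). Of 22 calcium genes, 0 were higher and 4 lower (0 and 5 without TMM factors): STIM1, STIM2, TRPM7 and the warm-activated channel TRPV3 (104 ± 22.7 normalised CPM in MGNS and 55.8 ± 8.29 in MGHS). Of 26 genes of the G2 and M phases, 8 passed the filter on low counts, 0 passed the test and the median was 1.17, with 7 of the 8 above 0 with and without TMM factors. ANLN, a protein of cell division, was higher without overlap, at 25.7, 34.1 and 40.9 normalised CPM in the MGNS animals and 108, 60.1 and 58.3 in the MGHS animals (log2 1.15 ± 0.31, edgeR adjusted p = 0.234). The other 7 overlapped, among them CENPF at 5.02, 4.38 and 9.15 normalised CPM in the MGNS animals and 14.5, 5.34 and 51.5 in the MGHS animals, with MGHS 3 alone at the top. These 8 genes summed to 97.1 to 105 CPM in MGNS and 262 to 462 CPM in PTPRC nuclei of MGNS, and to 98.8 to 252 and 298 to 522 CPM in MGHS.

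Marker sums of other cell types differed in how they compared with PTPRC nuclei. The T and NK cell list summed to 225 to 249.9 CPM in MGNS and 117 to 196 in MGHS, against 4479 to 5428 and 3207 to 5393 in PTPRC nuclei. The B cell list summed to 20.4 to 78.9 and 23.8 to 65.9 CPM (CD79A at 0), against 899 to 1678 and 482 to 690.1. The macrophage and dendritic cell list summed to 41.1 to 72.97 and 19.1 to 36.9 CPM (MARCO at 0), against 1169.7 to 1516 and 1165 to 1377. These leukocyte lists and the endothelial list, at 51.7 to 149.7 and 54.8 to 211 CPM against 332 to 502 and 359 to 392, were lower in spinous than in PTPRC nuclei. The muscle and pericyte list overlapped with PTPRC nuclei in MGNS, at 97.1 to 116 CPM against 102 to 140.1, and lay below them in MGHS, at 95.1 to 132 against 164 to 250.2. The glia list was higher in spinous nuclei, at 109.7 to 184 and 99.8 to 167 CPM against 44.4 to 98.9 and 62.1 to 81.1, with SOX10 and S100B at 0. The neutrophil list holds S100A8 and S100A9, which stressed keratinocytes also make. It summed to 7535 to 9350.2 CPM in MGNS and 3635 to 8384 in MGHS (TREM1 at 0), against 2164 to 2806 and 941 to 3735 in PTPRC nuclei. The fibroblast list moved with the groups, from 229 to 308 CPM in MGNS to 461 to 785 in MGHS, and from 791 to 872 to 1111 to 1725 in PTPRC nuclei. Of its 10 tested genes 0 passed, and 5 were higher without overlap (4 without TMM factors). The part of these cells in the group differences was not tested.

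The third comparison asked whether the group difference in spinous nuclei differed from that in neighbouring layers. Against the upper gate, an edgeR interaction test found 75 of 11806 genes (0.635%), 48 with a more positive difference in spinous nuclei and 27 with a more negative one, and 2255 had an unadjusted p under 0.05. The 75 include 4 rule genes, which are not counted as results. The upper gate differed in makeup between the groups: 70.2, 82.1 and 73.5% of its nuclei in the MGNS animals also held 4 or more spinous genes, and 37.05, 54.5 and 30.04% of those in the MGHS animals. Its part in these differences was not tested.

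TGM3, the transglutaminase that cross-links envelope proteins, measured 1308, 843 and 1547 CPM in the MGNS animals and 583, 475 and 1088 in the MGHS animals in spinous nuclei, with overlap. In upper nuclei it measured 2842, 1855 and 2784 CPM in the MGNS animals and 551, 394 and 911 in the MGHS animals, without overlap. The group difference was more positive in spinous nuclei by 1.38 ± 0.21 on the log2 scale (SE; edgeR adjusted p = 0.0319). MALT1, the protease that acts with CARD14 and BCL10, averaged 93.8 ± 10.1 CPM in MGNS and 72.3 ± 9.02 in MGHS in spinous nuclei and 170.4 ± 8.80 CPM in MGNS and 56.9 ± 14.2 in MGHS in upper nuclei, a difference of 1.38 ± 0.22 (edgeR adjusted p = 0.0319). For both genes the mean was lower in MGHS in either layer, and by more in the upper one.

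C5H5orf46 averaged 18.4 ± 4.73 CPM in MGNS and 71.5 ± 12.2 in MGHS in spinous nuclei and 49.3 ± 23.9 CPM in MGNS and 60.7 ± 10.4 in MGHS in upper nuclei, a difference of 1.72 ± 0.25 (edgeR adjusted p = 0.0319). For LOC121816532 the values were 16.02 ± 0.713 CPM in MGNS and 65.05 ± 13.9 in MGHS and, in upper nuclei, 39.96 ± 8.98 CPM in MGNS and 56.8 ± 18.4 in MGHS, a difference of 1.67 ± 0.33 (edgeR adjusted p = 0.0473). The rise of both in MGHS was thus larger in spinous than in upper nuclei. For GPX1, SLC28A3 and GNA14 the difference between the layers was -0.49 ± 0.33, 0.98 ± 0.30 and -0.52 ± 0.33 and did not pass (edgeR adjusted p = 0.446, 0.122 and 0.405). In upper nuclei GPX1 averaged 19.6 ± 6.03 CPM in MGNS and 193 ± 117 in MGHS.

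**Figure D5:**
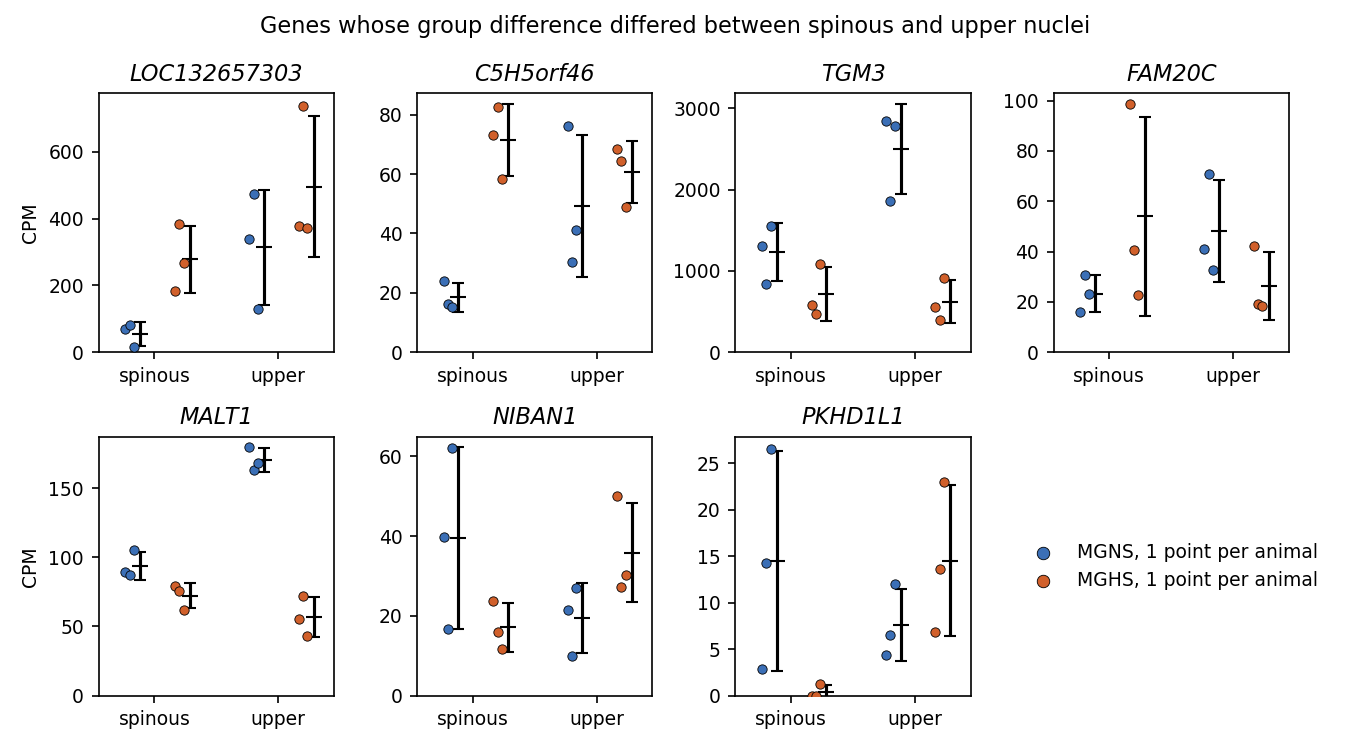
CPM per animal in spinous and upper nuclei for the 7 genes outside the rule with the smallest p in the test of the difference between the layers, with bars for mean ± SD of 3 animals. TGM3 and MALT1 are further apart between the groups in upper nuclei, and C5H5orf46 in spinous nuclei.

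The other genes of smallest p were LOC132657303, NIBAN1, FAM20C and PKHD1L1, each with an edgeR adjusted p of 0.0319. LOC132657303, an lncRNA between UCHL3 and LMO7 in the gene table, averaged 54.5 ± 35.5 CPM in MGNS and 278 ± 100.3 in MGHS in spinous nuclei and 314 ± 173 CPM in MGNS and 496 ± 210.4 in MGHS in upper nuclei, a difference of 1.95 ± 0.25. NIBAN1, a gene of the stress response, averaged 39.5 ± 22.8 CPM in MGNS and 17.2 ± 6.15 in MGHS in spinous nuclei and 19.5 ± 8.72 CPM in MGNS and 35.9 ± 12.4 in MGHS in upper nuclei, so the means differed in opposite directions (-1.93 ± 0.30). FAM20C, a kinase of secreted proteins, averaged 23.2 ± 7.34 CPM in MGNS and 54.03 ± 39.6 in MGHS in spinous nuclei and 48.2 ± 20.2 CPM in MGNS and 26.5 ± 13.5 in MGHS in upper nuclei (2.04 ± 0.32); it overlaps 14 genes of the table, so its count is uncertain. PKHD1L1 was low, at 2.84, 14.3 and 26.5 CPM in the MGNS animals and 0, 0 and 1.23 in the MGHS animals in spinous nuclei, and 4.42, 6.48 and 11.96 CPM in the MGNS animals and 6.82, 13.7 and 23.01 in the MGHS animals in upper nuclei, a difference of -5.37 ± 0.76, which ranged from -8.27 to -3.48 over 11 alternatives. Leaving out an animal moved the count of 75 widely. In edgeR 0 genes passed without MGNS 2, MGHS 1 or MGHS 3 (1543, 1505 and 1405 at an unadjusted p under 0.05), 10 without MGNS 1, 173 without MGNS 3 and 1097 without MGHS 2. With at least 5 of 6 spinous genes required, 1 gene passed, and 0 of the 75.

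Against the basal gate edgeR found 0 of 13513 genes (0%), with 810 at an unadjusted p under 0.05, and limma-voom found 0. The smallest adjusted p was 0.106, shared by CNBD1, EZH2, LOC101102714, FGF13, MTSS1, KYNU, SLC9A9 and HIPK2. EZH2, a histone methyltransferase that keeps differentiation genes off, averaged 157 ± 61.1 CPM in MGNS and 61.995 ± 18.6 in MGHS in spinous nuclei and 78.7 ± 13.995 CPM in MGNS and 77.4 ± 14.9 in MGHS in basal nuclei, a difference of -1.23 ± 0.21 (edgeR adjusted p = 0.106). GPX1 averaged 56.1 ± 22.1 CPM in MGNS and 369.7 ± 65.95 in MGHS in basal nuclei. Its group difference in spinous nuclei differed from that by -0.17 ± 0.22 (edgeR adjusted p = 0.961), and that of C5H5orf46 by 0.23 ± 0.52 (edgeR adjusted p = 0.986). A p that misses the threshold does not show that the layers responded alike.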

How the data were processed

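Nuclear RNA of 6 animals, 3 MGNS and 3 MGHS, was counted per gene and barcode. The authors' deposited values are unscaled UMI counts, and the 2 sources differ on the software: Cell Ranger 8.0.0 per the file headers, 2.1.1 per the submitters' processing notes. Build and strand use of the counting were not stated. Gene numbers were matched to symbols (26741 of 26741) by a RefSeq gene table of ARS-UI_Ramb_v3.0, from which only names, neighbours and overlaps of genes were taken.

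The members, the gene lists and the rule for named genes were chosen with earlier results of these data known. Named were the 19 rule genes, up to 12 genes per direction of the group difference (filled by smallest p among genes without overlap), up to 4 members and the extremes of each list, the 20 genes highest in members, and 8 genes per interaction test. Counts were summed per animal and tested in edgeR 4.0.16 (R 4.3.3; robust quasi-likelihood, filterByExpr with a minimum count of 10, TMM), with DESeq2 1.42.0 and limma 3.58.1 as alternatives. All genes were fitted together, and p-values adjusted by Benjamini-Hochberg. Shares were compared with an exact permutation test over animals in scipy 1.17.1. Doublets were scored with Scrublet in scanpy 1.11.5; where under 0.5% were called, the top scores at 0.8% per 1000 nuclei were taken. Scripts were tested on simulated data. Some members of the gene lists are counted but not named here.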

Additional observations from a re-analysis of the deposited data

Results flagged for a closer look

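The interaction test between spinous and upper nuclei passed 75 genes, 4 of them rule genes that are not counted as results, and 7 others are named here with the log2 difference between the 2 group differences. It was 1.95 for LOC132657303, 1.72 for C5H5orf46, 1.38 for TGM3, 2.04 for FAM20C and 1.38 for MALT1, all more positive in spinous nuclei. It was -1.93 for NIBAN1 and -5.37 for PKHD1L1, both more negative there. PKHD1L1 was at 0, 0 and 1.23 CPM in spinous nuclei of the MGHS animals and did not pass the filter on low counts in spinous nuclei alone, so the size of its difference is uncertain (-8.27 to -3.48 over 11 alternatives). The share of upper nuclei with at least 4 spinous genes was 70.2% to 82.1% in MGNS and 30.04% to 54.5% in MGHS, and its part in these differences was not tested. Each of the 7 passed in 6 or 7 of 11 other analyses.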

How the results depend on the processing

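The shares of members kept their direction and their side of the threshold under every alternative run (all UMIs, thinning to 4000 UMIs, 5 or 3 of 6 genes, no called doublets, each animal left out), although with 3 animals per group no share could pass. For the group difference in members, 5 genes passed; the count was 123 with DESeq2, 11 with limma-voom, 9 with RLE factors, 119 without a filter on low counts, 9 with 3 of 6 spinous genes required, and 0 with 5 of 6. It was 0 with the rule read on nuclei thinned to 2000 UMIs, an alternative chosen after seeing the data, and 0 to 15 with each animal left out. With the replicate number as a block it was 27. The same-numbered animals correlated at -0.06, 0.02 and 0.15 in their deviations. With 3 animals per group, these values cannot settle whether the numbers pair the samples. For the difference against the upper gate, 75 genes passed, against 832 without a filter, 190 with limma-voom, 1 with 5 of 6 genes, 261 without called doublets and 0 to 1097 with each animal left out. Against the basal gate the count was 0, against 135 without a filter and 0 to 13 with each animal left out. The cause of these shifts was not tested. No result changed sign while past the threshold. Precision was limited by 70 to 220 members and 629005 to 2943257 UMIs per animal.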
